A study of Olea europaea with 6 samples.

Results

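Protein kinases transfer phosphate from ATP to other proteins, and protein phosphatases remove it, so that the pair act as switches in the signalling of plant cells. Receptor-like kinases with leucine-rich repeats span the plasma membrane, bind ligands with the repeats outside the cell and pass the signal on with the kinase domain inside; in plants they are known for roles in hormone perception, growth and defense. Transcripts of 3 genes tied to such signalling by annotation were examined here in the fruits and leaves of the olive tree, out of 54615 probe sets on the array. GO244011_1 is an olive EST (a partial cDNA sequence) annotated in the study with protein phosphorylation and signal transduction. It has no kinase description, and is counted among the kinase probe sets here by those terms alone. eugene3.00140935 is a poplar gene model described as a putative protein kinase, and fgenesh4_pm.C_LG_IV000224 is a poplar gene model described as a putative leucine-rich repeat transmembrane protein kinase. All 3 were listed by the study as changed between leaves on these same arrays. GO244011_1 was listed for ON-M against ON-J, and was also selected here on RF against UF, a difference outside the study's lists. eugene3.00140935 was selected on OFF-M against OFF-J, and fgenesh4_pm.C_LG_IV000224 on ON-M against both ON-J and OFF-M. Those differences are therefore given as values without a test, and so are differences that share arrays with them, and none of the 3 is counted among the calls of the wider kinase list.

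Total RNA of cv. Ayvalık was labelled with Cy3 and hybridized to one-colour oligonucleotide arrays. The groups were ripe fruit (RF, October) and unripe fruit (UF, July) of an on-year tree, mature leaves of the on year (ON-M, November) and juvenile leaves of the on year (ON-J, July), and mature leaves (OFF-M, November) and juvenile leaves (OFF-J, July) of the off year. Each group had 2 arrays except ON-M, which had 1, 11 in all. The on-year and off-year leaves came from neighbouring trees and from different calendar years, so that bearing year, calendar year and tree cannot be told apart. No treatment was applied to any group. By the methods, replicates were biological, a pair for every sample, whereas ON-M has 1 array here. No source used here ties them to separate trees, so a p-value describes the scatter among these arrays.

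The values are log2 signals after the background subtraction, quantile normalization and RMA summary of the authors. A control set of 4035 random-sequence probes gives the level of signal without a target, and it lay between 5.18 and 5.48 on the 11 arrays. The labelled organs were set beside 2 short marker lists. Both lists were taken by words from the study's tables of transcripts changed on these same arrays, so they are no independent check of the labels. The median of 6 photosynthesis transcripts was 6.15 and 6.41 on the RF arrays, against 9.92 and 9.84 on the UF arrays, and between 9.74 (ON-M) and 11.81 on the leaf arrays. Among them, GO245562_1 overlapped between RF (9.88 to 10.86) and UF (10.65 to 10.77), and the others were lower in RF. Of 4 transcripts with an anthocyanin term, FL683529_1 lay at 15.05 to 15.21 in RF against 6.15 to 6.17 in UF, and GO243553_1 at 14.61 to 14.79 in RF against 10.79 to 10.81 in UF, while the RF and UF ranges of the other two overlapped. The arrays also differed in the median of all olive probe sets, which was 9.83 and 10.22 in RF against 11.04 on both UF arrays, and 10.66 in ON-M against 11.21 and 11.43 in ON-J. Replicate arrays had squared correlations over all probe sets between 0.826 (RF) and 0.978 (UF).

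The number of probes behind a value differed among the 3 transcripts. GO244011_1 was summarized from 3 probes, as was each of the 5543 olive sets. fgenesh4_pm.C_LG_IV000224 had 2 probes, and eugene3.00140935 had 1, like 4915 of the 49072 poplar sets. The probes of the poplar models were designed on poplar sequence and were hybridized with olive RNA. Over all sets, the median residual SD between replicates was 0.44 for poplar sets of 1 probe, 0.33 for 2 probes and 0.31 for 3 probes, and 0.22 for olive sets. The residual SD of eugene3.00140935 was 0.11, smaller than that of all but 1.36% of the poplar sets with 1 probe, and those of fgenesh4_pm.C_LG_IV000224 (0.26) and GO244011_1 (0.19) lay below the medians of their kinds. These SDs include arrays on which each transcript was chosen. Agreement between replicate arrays of a 1-probe set does not show which transcript the probe hybridized to.

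**Figure D1:**
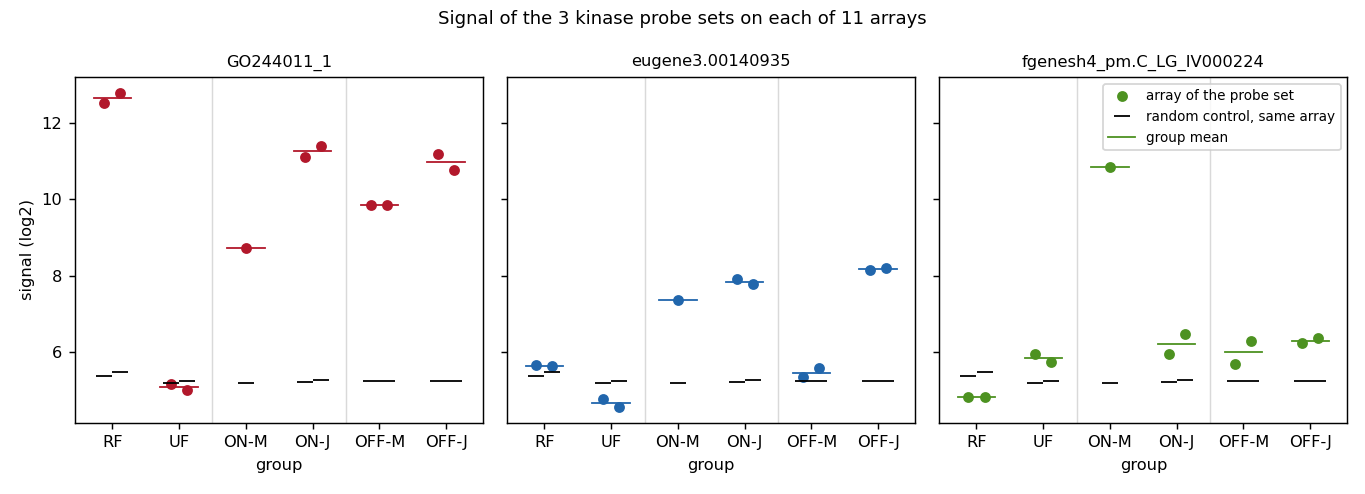
Log2 signal (vertical axis) of the 3 kinase probe sets on every array, by group (horizontal axis); points are arrays, coloured lines are group means and black dashes are the random control on the same array. GO244011_1 lies at the random control in UF alone, eugene3.00140935 lies high in the juvenile leaves and ON-M, and fgenesh4_pm.C_LG_IV000224 stands out on the single ON-M array at 10.84.

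GO244011_1, the olive EST, had the widest range of the 3, 7.79 on the log2 scale. Its log2 signal was 12.54 and 12.79 in RF, against 5.15 and 5.01 in UF. Both UF arrays were below the random control of the same array (5.18 and 5.24), so that the transcript was not above background in unripe fruit, and both RF arrays were above it by 7.18 and 7.31. The difference of RF minus UF was 7.59 (SE 0.24), one of those that chose the transcript. With UF values raised to the random control, the signal was at least 175-fold higher in RF. The medians of the photosynthesis markers and of the olive sets were lower in the same RF arrays, as given above, and their part in the difference was not tested.

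In leaves the same EST was measured well above the random control on every array. It had 8.74 in ON-M, against 11.11 and 11.41 in ON-J, a difference of -2.52 (SE 0.30) that also chose it. In the off year it had 9.85 on both OFF-M arrays, against 11.20 and 10.76 in OFF-J. Mature leaves were thus below juvenile leaves on every array of both years, without overlap. The off-year difference of means used no array of the choice, and it was -1.13 (SE 0.24, limma, adjusted p = 0.0954), which did not pass the threshold of 0.05. Its SE pools the spread of all groups, including the RF, UF and ON-J arrays of the choice. The adjusted p fell on either side of the threshold with the setting: it was 0.0435 in the fit without both RF arrays and 0.0357 with low values raised to the random control. It was 0.115 with the OFF-M and OFF-J arrays alone and 0.149 with the replicate block. Leaving out single arrays put it between 0.0435 (without RF replicate 1 or 2) and 0.442 (without OFF-M replicate 2). The ON-M value comes with a lower median of all olive sets on that array, and the part of that median in the on-year difference was not tested.

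Between bearing years, GO244011_1 was at 8.74 in ON-M against 9.85 and 9.85 in OFF-M (difference -1.11, 95% interval -1.79 to -0.44, and -0.41 when arrays were centred on their olive medians). Its juvenile leaves overlapped, with 11.11 and 11.41 in ON-J against 11.20 and 10.76 in OFF-J (difference 0.27, 95% interval -0.28 to 0.83, and -0.09 with that centring). Both comparisons share arrays with those that chose it. Between organs at about the same season, UF lay below juvenile leaves by at least 60.1-fold, and RF lay above mature leaves by 3.37 (SE 0.23). Ordered by group mean, the levels ran RF (12.66 ± 0.18), ON-J (11.26 ± 0.22), OFF-J (10.98 ± 0.31), OFF-M (9.85 ± 0.0023), ON-M (8.74, 1 array) and UF (5.08 ± 0.10; SD, n = 2 where given). The arrays of ON-J and OFF-J overlapped and those of the other neighbours did not, with UF at background and a single ON-M array. Against the other olive sets, it stood above 71.6% and 72.8% of them in RF, 48.9% to 50.8% in juvenile leaves, 36.5% to 37.3% in mature leaves and 10.4% and 9.31% in UF.

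eugene3.00140935, the putative protein kinase measured by 1 probe, was highest in the juvenile leaves and ON-M, and near background in OFF-M and fruit. Its log2 signal was 5.35 and 5.57 in OFF-M, against 8.14 and 8.21 in OFF-J, the comparison that chose it (difference -2.72, SE 0.21). The OFF-M arrays were only 0.11 and 0.32 above the random control. In the on year it had 7.36 in ON-M, against 7.91 and 7.77 in ON-J. That ON-M value was below both ON-J arrays, yet the difference of -0.48 had a 95% interval of -1.07 to 0.11 (limma, adjusted p = 0.699), and it became 0.18 with arrays centred on their olive medians. The on-year leaves thus gave no call, while mature leaves of the off year were lower by 6.57-fold; the difference between the years was not tested. Set side by side, ON-M stood 1.91 above OFF-M (95% interval 1.31 to 2.50), and ON-J stood 0.33 below OFF-J (95% interval -0.82 to 0.15). These share arrays with the comparison that chose it.

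In fruits this putative kinase was near background. It had 5.65 and 5.62 in RF, against 4.78 and 4.55 in UF, without overlap. The UF values were below the random control on both arrays, and the RF values were 0.29 and 0.13 above it. The difference of 0.97 (SE 0.21) passed the test (limma, adjusted p = 0.0097), but was below the log2 difference of 2 used for a call. Its SE pools the spread of all groups, including the OFF-J and OFF-M arrays that chose the set. As UF was not above background, the difference is a bound of at least 1.34-fold, with an adjusted p of 0.0416 when low values were raised to the random control. It was 0.0669 with the 4 fruit arrays alone and 0.0862 without UF replicate 2 (difference 0.86). The median of the photosynthesis markers was lower in the same RF arrays, and their part was not tested. UF lay below juvenile leaves by at least 6.94-fold, and RF differed from mature leaves by -0.77 (95% interval -1.23 to -0.32), a sign that turned to 0.22 with olive-median centring.

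The groups of eugene3.00140935 ran OFF-J (8.17 ± 0.047), ON-J (7.84 ± 0.10), ON-M (7.36, 1 array), RF (5.63 ± 0.022), OFF-M (5.46 ± 0.16) and UF (4.67 ± 0.16; SD, n = 2 where given). RF and OFF-M had a gap of 0.18, smaller than the 0.22 between the arrays of OFF-M, and did not differ beyond their spread. No arrays of neighbouring groups overlapped, but the fitted intervals of ON-J minus OFF-J and of ON-M minus ON-J include 0, and UF is at background. Among poplar sets it was above 90.7% and 90.6% of them in OFF-J and above 35.1% and 42.1% in OFF-M.

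fgenesh4_pm.C_LG_IV000224, the putative receptor-like kinase, was bright on 1 array alone. It had 10.84 in ON-M, against 5.94 and 6.46 in ON-J, and 5.69 and 6.29 in OFF-M. The differences that chose it were 4.64 (SE 0.34) against ON-J and 4.85 (SE 0.34) against OFF-M, or 25.0-fold and 28.8-fold. ON-M has no second array here, so its spread was taken from the other groups and no replicate checks the value. On that array it was above 98.1% of the poplar sets, and elsewhere in leaves it was above 46.4% to 67.5% of them. In juvenile leaves it had 5.94 and 6.46 in ON-J, against 6.23 and 6.36 in OFF-J, and the ranges overlapped. In the off year it had 5.69 and 6.29 in OFF-M, against 6.23 and 6.36 in OFF-J, and these also overlapped (difference -0.31, 95% interval -0.94 to 0.33).

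Only 16 of the 54615 probe sets, all of poplar, had an ON-M value at least 2 above every other array, and this one was second among them with a margin of 4.38. The set with the largest margin, eugene3.02430009, had 4.95 and a single probe, and was described as a hypothetical protein of the bacterium Burkholderia fungorum. The list, drawn up after the values were seen, also held eugene3.00020895, described as a putative protein phosphatase 2C, an enzyme class that removes phosphate, with 11.91 in ON-M against at most 9.54 elsewhere. It held fgenesh4_pg.C_scaffold_5695000001, described as a RAS-related small GTPase of the rac type, with 9.13 against at most 5.48, and fgenesh4_pg.C_LG_XVII000057, described as a RAB GDP-dissociation inhibitor, with 9.37 against at most 7.12. Other sets of the list had unrelated descriptions, such as a retroelement reverse transcriptase, a helicase domain protein, a cytochrome P450, a salivary protein and an acidic ribosomal protein. The list is thus not a group of signalling genes. Counted by the same rule, the other arrays had between 7 (UF replicate 1) and 605 (RF replicate 2) sets that stood out alone. On those arrays a set also had to exceed the replicate of the same group, and ON-M has none. The counts are therefore not alike, and they do not show whether such peaks are particular to ON-M.

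In fruit, fgenesh4_pm.C_LG_IV000224 had 4.81 and 4.82 in RF, against 5.95 and 5.74 in UF, without overlap. Both RF arrays lay below the random control, by 0.55 and 0.66, and both UF arrays lay above it, by 0.77 and 0.50. The difference was -1.03 (SE 0.28, limma, adjusted p = 0.0228), from arrays that did not choose it, and below the log2 difference of 2 used for a call. Its SE also uses the spread of the ON-J and OFF-M arrays, on which it was chosen. The result depended on the setting. The adjusted p was 0.212 with low values raised to the random control, a bound of at least 1.34-fold lower in RF, 0.0596 with the fruit arrays alone, 0.135 without UF replicate 1 and 0.081 without UF replicate 2. With olive-median centring the difference was -0.019 (adjusted p = 0.963).

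Its groups ran ON-M (10.84, 1 array), OFF-J (6.30 ± 0.089), ON-J (6.20 ± 0.37), OFF-M (5.99 ± 0.42), UF (5.85 ± 0.15) and RF (4.82 ± 0.0087; SD, n = 2 where given). From OFF-J down to UF all neighbours overlapped, and RF is at background. UF differed from juvenile leaves by -0.40 (95% interval -0.95 to 0.15). RF lay below mature leaves by at least 7.97-fold, a comparison that carries the ON-M array.

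**Figure D2:**
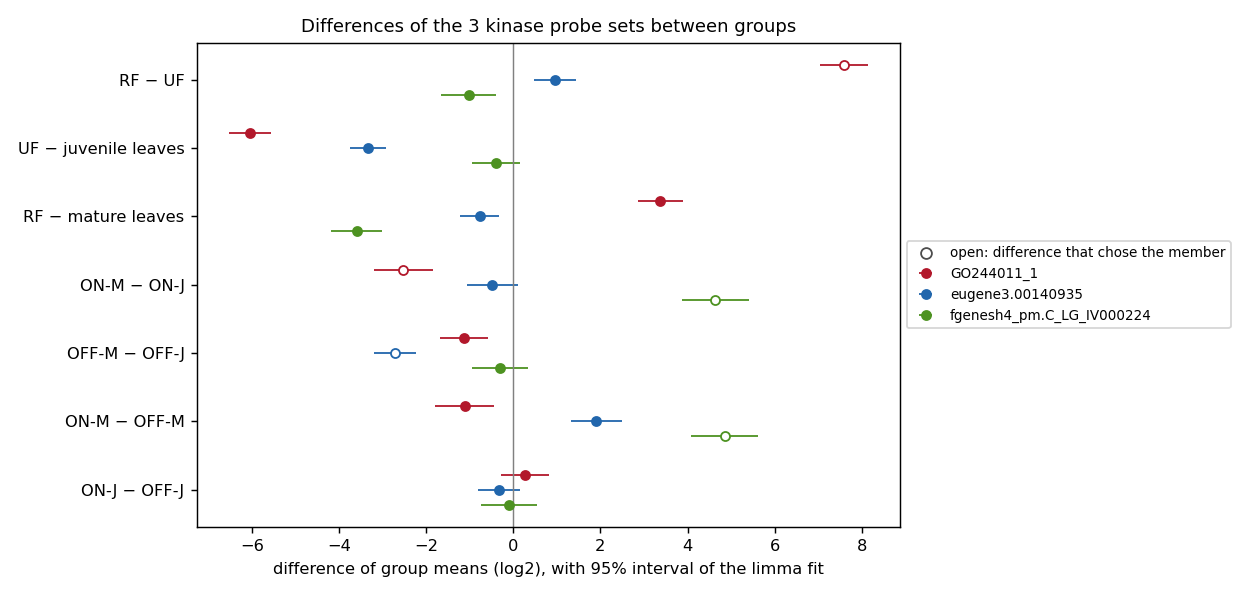
Difference of group means in log2 units (horizontal axis) of the 3 kinase probe sets in 7 comparisons (vertical axis); bars are 95% intervals of the limma fit, and open points mark the differences by which a transcript was chosen. The juvenile leaves of both years (ON-J minus OFF-J) lie near 0 for all 3, between -0.33 and 0.27, and the fruit comparison spreads from -1.03 to 7.59.

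The 3 transcripts did not move together. Over the 11 arrays, Pearson's r was 0.511 between eugene3.00140935 and GO244011_1, 0.372 between the 2 poplar models and -0.219 between fgenesh4_pm.C_LG_IV000224 and GO244011_1, as descriptions of points that share groups.

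Among 17417 probe sets with a range of at least 2, the one most like GO244011_1 was the olive EST FL683481_1 (r = 0.989). It was followed by GO243537_1 (0.958), FN998157_1 (0.955), GO243761_1 (0.932) and GO245039_1 (0.924), all of olive and without annotation in the tables used. Without the UF arrays the same r was 0.954, 0.968, 0.848, 0.76 and 0.57. The ESTs other than FL683481_1 and GO243537_1 were thus less alike on the other 9 arrays.

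No set reached an r of 0.9 with eugene3.00140935. The closest were fgenesh1_pg.C_scaffold_234000022 (0.885), the olive EST GO243528_1 (0.883), gw1.IV.3178.1 (0.881), eugene3.22230001 (0.879) and fgenesh4_pg.C_LG_II000113 (0.879), none of them annotated here. Those most like fgenesh4_pm.C_LG_IV000224 were all poplar models: fgenesh4_pg.C_scaffold_5695000001 (r = 0.976), estExt_Genewise1_v1.C_LG_XII0166, described as an ATPase (0.975), eugene3.00290281, described as the flavonol glucosyltransferase UGT73B2 (0.975), estExt_Genewise1_v1.C_660290, described as a BTB-POZ and MATH domain protein (0.970), and eugene3.137690001 (0.953). Without the ON-M array these r values lay between 0.773 and 0.863, so that the likeness rested in part on 1 array. With Spearman's rank correlation, 1, 1 and 0 of the 5 sets stayed among the closest 5 of GO244011_1, eugene3.00140935 and fgenesh4_pm.C_LG_IV000224.

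**Figure D3:**
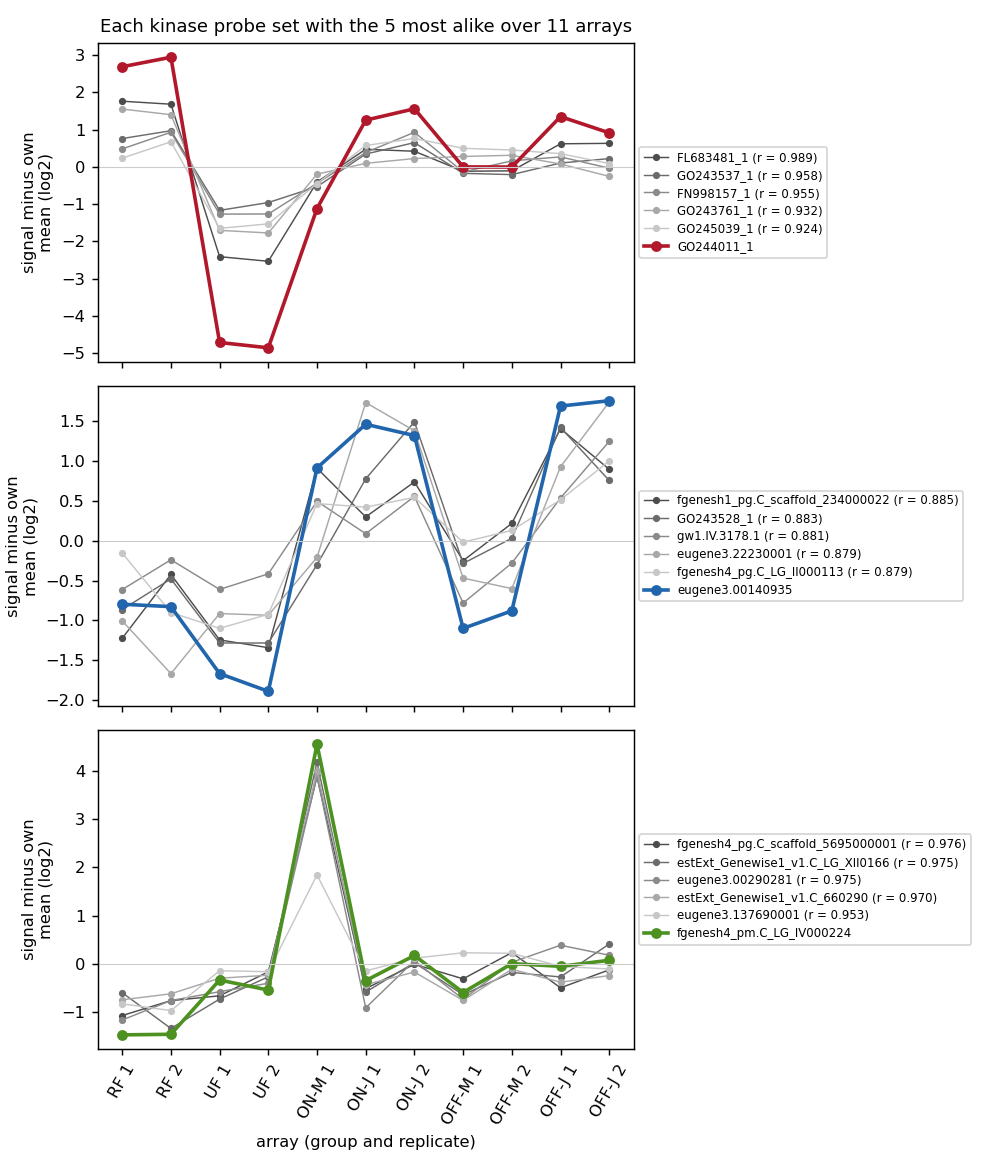
Log2 signal minus the set's own mean (vertical axis) on each array (horizontal axis) for the 3 kinase probe sets, in colour, and the 5 sets most like each, in grey with Pearson's r. The sets like fgenesh4_pm.C_LG_IV000224 share its peak on the ON-M array, and those like GO244011_1 share its low UF values at a smaller size.

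The wider group of kinases was taken by words from the study's tables of changed transcripts and holds 28 probe sets, 5 of olive and 23 of poplar, including the 3 above. The 5 olive ESTs have clone names for descriptions and entered by annotation terms alone. The counts below cover the 25 others. Since the tables list transcripts picked for differences between leaves of these arrays, the leaf counts are not independent of that choice. In fruit, 8 of the 25 were called lower in RF than UF and 0 higher, beside 3.46% of all probe sets called lower and 3.3% called higher. Among the 21 poplar models, 7 were called lower and 0 higher, beside 1.9% and 3.25% of all poplar sets. By an unadjusted p under 0.05 in limma, at any size of difference, 17 of the 25 were lower and 2 higher, beside 21.9% and 23% of all sets, and 14 of the 17 were among the 16 poplar models described only as protein kinase family proteins. The median difference of the 25 was -1.42, against 0.03 over all sets.

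The olive EST FN997722_1 had the largest decrease of the list. It lay between 5.69 and 6.27 in RF, against 11.15 and 11.20 in UF (difference -5.20, SE 0.31, limma, adjusted p = 1.07e-05). Among poplar models described as protein kinase family proteins, gw1.117.241.1 lay at 4.79 and 5.34 in RF against 8.76 and 8.80 in UF (difference -3.72, adjusted p = 5.91e-05). gw1.XV.570.1 lay at 4.63 and 5.42 in RF against 7.62 and 7.76 in UF (difference -2.66, adjusted p = 0.00153). Both RF values of each of these poplar models lay below the random control of the same array. The difference of GO244011_1, which this comparison chose, was positive (7.59). The split of calls changed when arrays were centred on their olive medians, which raised every RF minus UF difference by 1.01: then 2 of the 25 were called higher and 2 lower, beside 16.7% and 1.41% of all sets. Without UF replicate 1, 5 were called lower, and without RF replicate 2, 1 was called higher.

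In leaves, 2 of the 25 were called higher in ON-M than ON-J and 4 lower, beside 0.0677% and 0.485% of all sets. The ones higher were another poplar protein kinase family model (3.07) and fgenesh1_pg.C_scaffold_5520000001 (2.12), and among the ones lower were GO244546_1 (-2.76), GO244186_1 (-2.53) and gw1.41.74.1 (-2.31). These counts were not stable: none was called with the arrays of the compared groups alone, 2 higher and 1 lower with olive-median centring, and leaving out single arrays gave 0 (without ON-J replicate 1) to 2 higher and 2 (without ON-J replicate 1, among others) to 8 (without either OFF-J array) lower. In the off year, 2 were called higher in OFF-M than OFF-J and 0 lower, beside 0.341% and 0.0439%. They were fgenesh4_pg.C_scaffold_17737000001 (2.78), described as a serine/threonine kinase, and FN997722_1 (2.05). No count at an unadjusted p is given here, since the share of all sets was not counted for it. Leaving out single arrays gave between 0 higher (without OFF-J replicate 2 or OFF-M replicate 2) and 3 (without either ON-J array), with 1 without OFF-M replicate 1 or either UF array, and olive-median centring gave 1.

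For ON-M against OFF-M, 1 of the 25 was higher and 1 lower, beside 0.0293% and 0.126% of all sets. The same poplar family model (3.15) was the one higher, and fgenesh4_pg.C_scaffold_17737000001 (-2.83) the one lower. No call remained in either direction with the compared groups alone, with the replicate block, or without any one of the UF, OFF-J or ON-J arrays or OFF-M replicate 2. Without OFF-M replicate 1, 0 were higher and 1 lower, and without either RF array, 1 was higher and 2 lower. For ON-J against OFF-J none of the 25 was called by limma, beside 0% of all sets in either direction. At an unadjusted p under 0.05 and any difference, 17 were higher in ON-J and 0 lower, beside 3.28% and 2.86% of all sets, and 13 of the 17 were among the 16 protein kinase family models, which were largely alike in pattern, as given further on. The methods' t-test with a difference of at least 2 called 0.

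Between organs, 0 of the 25 were called in either direction in UF against juvenile leaves, beside 0.449% higher and 0.511% lower of all sets. At an unadjusted p under 0.05 in limma, 4 were higher and 14 lower, beside 7.88% and 5.85%, and 13 of the 14 were among the same 16 models. Like the counts of RF against mature leaves, these draw on leaf arrays by which the list was picked. Without OFF-J replicate 2, 3 were called lower, and without ON-J replicate 1, 1. Of the 25, 2 were called higher in RF than in mature leaves and 11 lower, beside 3.81% and 4.03%. With olive-median centring 4 were higher and 6 lower, and the share of all sets under it is not given. Without centring, the ones higher were the S-locus lectin kinase model gw1.XIII.74.1 (2.83) and GO244186_1 (2.33). FN997722_1 (-6.24), fgenesh1_pg.C_scaffold_5520000001 (-4.00) and gw1.117.241.1 (-3.44) had the largest differences among the ones lower.

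**Figure D4:**
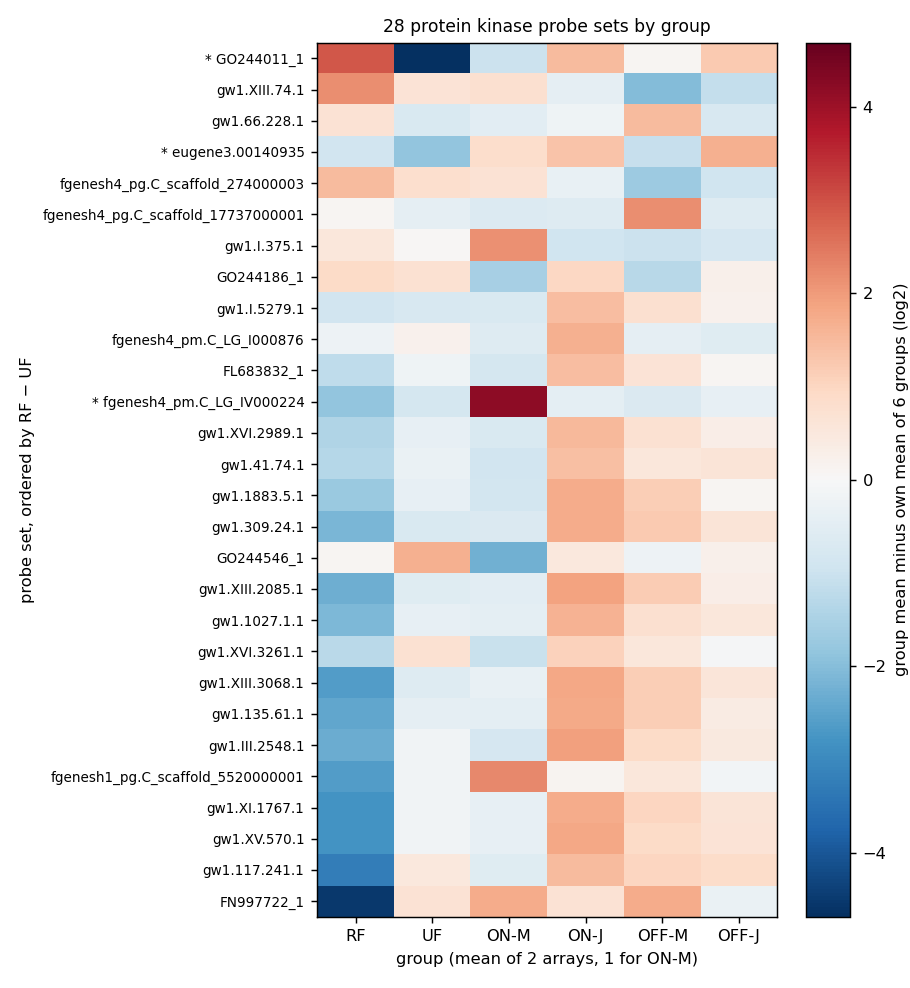
Group mean minus the set's own mean of the 6 groups, in log2 units (colour), for the 28 protein kinase probe sets (rows, ordered by RF minus UF, with the 3 transcripts starred) in each group (columns). GO244011_1 is highest in RF and fgenesh4_pm.C_LG_IV000224 in ON-M. Most of the 23 poplar models are family models largely alike in pattern, and the list was picked for leaf differences on these arrays.

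Many of the list's calls came from sets with nearly the same pattern. The 16 poplar models described only as protein kinase family proteins had a median r of 0.934 over their 120 pairs (lowest -0.724, highest 0.994), and 13 of them had a median r of 0.887 to 0.974 with the others. Their median log2 signal was 4.59 and 4.88 in RF, against 6.22 to 6.81 in UF, and 6.32 in ON-M against 8.27 to 8.74 in ON-J. The RF medians lay below the random control of those arrays (5.36 and 5.48), so the size of the decrease in RF is limited by background. Whether their probes share sequence was not tested, so the 16 are not 16 separate observations of a kinase. The 3 transcripts did not follow them: r with the mean of the 16 was -0.113 for GO244011_1, 0.432 for eugene3.00140935 and 0.221 for fgenesh4_pm.C_LG_IV000224.

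Phosphatases, which reverse the action of kinases, were represented in the study's tables of changed transcripts by 2 poplar models. Both were listed for leaf differences on these arrays, and ON-M is a single array. Their leaf values are therefore only described, and do not stand for the phosphatases on the array. The putative protein phosphatase 2C eugene3.00020895 had 11.91 in ON-M, against 7.82 and 8.44 in ON-J and 8.48 and 8.52 in OFF-M, and in fruit 8.67 and 9.54 in RF against 8.88 and 8.96 in UF, where the arrays overlapped. The type 1 phosphatase model gw1.XIX.504.1, measured by 1 probe, had 4.50 and 4.77 in RF against 5.83 and 6.83 in UF, a difference of -1.70 (limma, adjusted p = 0.00889) that was below the size used for a call. Both RF values lay below the random control (5.36 and 5.48), and olive-median centring raised every RF minus UF difference by 1.01. In leaves this model had 7.62 in ON-M, against 5.15 and 5.78 in ON-J and 5.94 and 6.06 in OFF-M.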

How the data were processed

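The 11 one-colour arrays were grouped by the organ, stage and year in their sample labels, 6 groups in all. Before deposit the authors removed the background, normalized the arrays by quantiles and summarized each probe set by RMA, whose version the sources used here do not give. The log2 values they deposited for each array were analysed as they are. The deposited table of group means in log2 units had the same values as the averaged arrays. A standard error that the authors' software gave each value (a deposited score) was not used. Precision is limited by the number of arrays.

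All 54615 probe sets but the random control entered limma 3.58.1 (R 4.3.3; 5 residual and 3.67 prior degrees of freedom), with a mean for each group and two-sided tests. Adjustment was by Benjamini-Hochberg over all sets of a comparison. The single ON-M array took its spread from the other groups. The spread of a set was pooled over all groups, so a p for any of the 3 transcripts also draws on arrays that chose it. Calls needed both an adjusted p below 0.05 and a log2 difference no smaller than 2. The fit was tested on simulated data. Where a group was at or below the random control on all its arrays, fold bounds used values raised to that control. Python 3.11.15 with pandas 2.3.3, numpy 2.4.6 and matplotlib 3.10.9 served for the rest.

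The 3 transcripts and the word lists were chosen with earlier results of these data known, and descriptions are those of the study's tables. Named besides the 3 were the 5 sets with the highest r to each, and of the lists at most 3 called members with the largest difference per direction; the kinase list was counted without the 3, a choice made after seeing the data. The sets standing out on ON-M alone, the phosphatases and the 16 protein kinase family models were named after their values were seen. The annotated reference genes matched 0 probe set names, and probe sequences were not used here. Alternatives were the compared groups alone, a trended robust prior, centring on all or olive medians, low values raised to the random control, a replicate block, leaving out single arrays, the averaged table, other thresholds, the methods' t-test and, added after seeing the data, a fit without the RF arrays.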

Additional observations from a re-analysis of the deposited data

Results flagged for a closer look

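The difference between the later and the earlier stage ran in opposite directions in fruit and on-year leaves for all 3 transcripts, on every array of those groups, and in fruit and off-year leaves for GO244011_1 and eugene3.00140935. In off-year leaves fgenesh4_pm.C_LG_IV000224 had overlapping arrays (-0.31) and ran the same way as in fruit (-1.03). These contrasts between organs were not tested, part of them rests on the comparisons by which the transcripts were chosen, and ON-M is a single array. For GO244011_1, RF minus UF exceeded ON-M minus ON-J by 10.11 and OFF-M minus OFF-J by 8.72 on the log2 scale, or by 9.97 and 8.58 with UF, which was below the random control, raised to it. For eugene3.00140935 these were 1.45 and 3.68, or 0.90 and 3.14 with UF raised in the same way, and its on-year leaf difference turned its sign with olive-median centring. For fgenesh4_pm.C_LG_IV000224, RF minus UF differed from ON-M minus ON-J by -5.67, or -5.07 with RF, which was below the random control, raised to it.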

How the results depend on the processing

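Centring on olive medians moved every RF minus UF difference by 1.01 and every ON-M minus ON-J difference by 0.66. With it, GO244011_1 was at 8.60 (RF minus UF), -1.86 (ON-M minus ON-J) and -1.54 (OFF-M minus OFF-J, adjusted p = 0.0242), eugene3.00140935 at -3.13 (OFF-M minus OFF-J) and, reversed, 0.18 (ON-M minus ON-J, adjusted p = 0.699), and fgenesh4_pm.C_LG_IV000224 at 5.30 (ON-M minus ON-J), 5.56 (ON-M minus OFF-M) and -0.019 (RF minus UF, adjusted p = 0.963). The off-year difference of GO244011_1 stayed at -1.13 with an adjusted p of 0.0313 (trended robust prior), 0.0357 (low values raised to the random control), 0.0377 (sets with a mean of at least 6) and 0.0435 (without RF). That p was 0.0976 with centring on all medians, 0.115 with the compared groups alone and 0.149 with the replicate block. RF minus UF had an adjusted p of 0.0669 for eugene3.00140935 (0.97) and 0.0596 for fgenesh4_pm.C_LG_IV000224 (-1.03) with the fruit arrays alone, and the second was -0.42 (adjusted p = 0.212) with low values raised.

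Leaving out 1 array gave -1.35 to -0.91 for GO244011_1 in OFF-M minus OFF-J (adjusted p 0.0435 to 0.442), 0.86 to 1.08 for eugene3.00140935 (0.00968 to 0.0862) and -1.13 to -0.92 for fgenesh4_pm.C_LG_IV000224 (0.0221 to 0.135) in RF minus UF, and 4.55 to 5.15 for fgenesh4_pm.C_LG_IV000224 in ON-M minus OFF-M. Without the ON-M array its comparisons have no value. Of the 25 other kinases, 0 to 1 were then called higher in RF than UF and 5 to 9 lower (1 to 2 and 5 to 9 of all 28). With olive-median centring 2 of the 25 were higher and 2 lower (3 and 2 of the 28), beside 16.7% and 1.41% of all sets. At a difference of at least 1, 14 (15 of the 28) were lower. Shares of all sets are not given for that threshold or for arrays left out, so those counts are not read further. The methods' t-test after adjustment called 0 in either direction. Replicate numbers did not pair the arrays (correlations of deviations -0.0464 to 0.152), and with the replicate block the RF minus UF difference was 0.97 (adjusted p = 0.0137) for eugene3.00140935 and -1.03 (0.0227) for fgenesh4_pm.C_LG_IV000224, with 0 of the 25 kinases higher and 8 lower; it changed no tested result of the 3 transcripts. Values at the random control have no order.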
